A study of Mus musculus with 18 samples.

Results

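The interferon response genes are a list of 41 genes that interferons switch on, and they were followed here in the mouse adrenal gland. The members were every probe annotated to these genes on an Illumina bead array: 72 probes covered 40 of the genes, and Ifi44 had none. A probe counted as above background on an array where its detection p was below 0.01. A gene was tested when this held on 3 arrays or more, which 33 of the 41 met, among 10375 genes tested in all. The other 7 genes with a probe, Ifih1, Ifit1, Oas1a, Oas3, Mx1, Xaf1 and Iigp1, were not above background on any array. Of the 33, 25 were above background on all 18 arrays.

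The adrenals came from C57BL/6N mice 2 months old in 6 groups of 3 arrays. These were wild-type intact males, Ephb6 knockout intact males, wild-type females, Ephb6 knockout females, wild-type castrated males and Ephb6 knockout castrated males. Ephb6 encodes a member of the Eph receptor family whose kinase domain is inactive. How the knockout was made, the time since castration and whether intact males had sham surgery are not given in the sources used here. Nothing in the labels says that the 3 samples of a group are different animals, and p-values here rest on a spread that may be technical. All 6 marker genes of the adrenal cortex and 5 of 6 of the medulla were above background, as the labelled tissue should give. Ephb6 itself fitted lower in the knockout by 1.14 on the log2 scale over the 3 conditions (SE 0.15, adjusted p = 0.00481), with 6 of 9 knockout arrays not above background. In intact males the difference was -0.55 (adjusted p = 1), 2 of 3 knockout arrays had it above background and the groups overlapped. Whether its probe lies in the deleted part was not known here.

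Interferons are secreted alarm proteins of virus infection and inflammation. Type I interferon acts through a receptor that activates a transcription factor complex holding STAT2 and IRF9, which binds interferon-stimulated response elements (ISRE) in target promoters. Interferon gamma acts through gamma-activated sites (GAS), and many targets answer to both. Uninfected tissues also keep a low tonic level of these transcripts. By role the 33 tested genes were 8 sensors and signalling proteins, 13 antiviral effectors, both parts of the ISG15 system, 5 interferon-inducible GTPases, 4 antigen processing genes and 1 chemokine.

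RefSeq promoter windows (GRCm38.p6), running from 250 bases before to 50 bases after a gene's start, were at hand for 33 of the 41 genes. They were searched on both strands for the ISRE core (GAAA, any 2 bases, then GAAA) and for the GAS letters TTCNNNGAA. The ISRE core was in the windows of 17 of the 33 genes (51.5%), against 3.99% of all 27025 genes with a window. GAS letters were in those of 11 (33.3%), against 9.55% of all genes. Of the 26 ISRE matches, which can overlap each other, 2 overlapped a GAS match. The stretches are shown because they hold ISRE matches, in capitals and on either strand, upstream of the start and outside the annotated gene. Genes lower in castrated males in a comparison below needed 1 such match, and other tested genes 2 or more. Stat2 and Cxcl10, not lower and with 1 match each, were left out by this rule. By the brightest probe of each gene, Isg15, Rsad2, Igtp, Gbp2 and Gbp3 were lower in castrated males in a comparison described below, and Bst2 and Irgm1 passed in none. A dimmer Irgm1 probe did pass as lower in castrated males, as given below. The stretches lie at chr4:156200845-156200926 (minus strand) for Isg15, chr12:26456533-26456602 (minus) for Rsad2 and chr11:58199492-58199555 (plus) for Igtp. Those of the other genes are chr3:142620574-142620643 (plus) for Gbp2, chr3:142559969-142560015 (plus) for Gbp3, chr8:71537557-71537632 (minus) for Bst2 and chr11:48871421-48871480 (minus) for Irgm1. Each is written 5′ to 3′ along the gene's strand.
Isg15: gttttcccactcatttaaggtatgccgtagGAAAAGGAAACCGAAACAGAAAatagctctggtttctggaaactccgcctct
Rsad2: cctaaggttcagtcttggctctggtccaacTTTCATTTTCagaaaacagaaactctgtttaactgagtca
Igtp: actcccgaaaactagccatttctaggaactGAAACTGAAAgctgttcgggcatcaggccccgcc
Gbp2: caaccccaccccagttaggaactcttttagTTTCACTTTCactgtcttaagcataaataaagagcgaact
Gbp3: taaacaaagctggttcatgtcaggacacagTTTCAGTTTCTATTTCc
Bst2: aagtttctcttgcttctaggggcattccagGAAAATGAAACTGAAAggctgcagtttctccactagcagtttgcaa
Irgm1: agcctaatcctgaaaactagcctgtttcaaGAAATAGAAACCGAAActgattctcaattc
Isg15 held 3 overlapping matches. The ISRE core was found for 4 of the 11 genes with a window that were lower in castrated than in intact males, and for 9 of the 16 tested genes with a window that did not pass there. For GAS letters the counts were 5 of 11 and 5 of 16. A match is a description of letters and not a shown binding site.

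The mean log2 intensity of the 33 genes was 8.95 to 9.33 over the 3 wild-type intact male arrays and 9.04 to 9.21 over the knockout ones. It was 9.20 to 9.42 in wild-type and 8.98 to 9.14 in knockout females. Castrated males gave 8.58 to 8.85 in wild type and 8.73 to 8.84 in the knockout, so every castrated array was below every intact male and female array. Within groups, wild-type intact male array 2 was the highest of its 3 arrays for 23 of the 33 genes (34.9% of all genes), and wild-type castrated array 1 the lowest for 24 (30.7% of all genes). Bead signals averaged 446 to 640 intensity units on 17 arrays and 244 on knockout castrated array 1, where 27.8% of probes were above background against 34.6% to 37.9% on the others. Its mean correlation with its group's other arrays was 0.957. Knockout female array 1 had the next lowest, 0.97, close to the 0.973 to 0.987 of the remaining arrays. Both were left out together as an alternative and are called the arrays that stood apart.

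**Figure D1:**
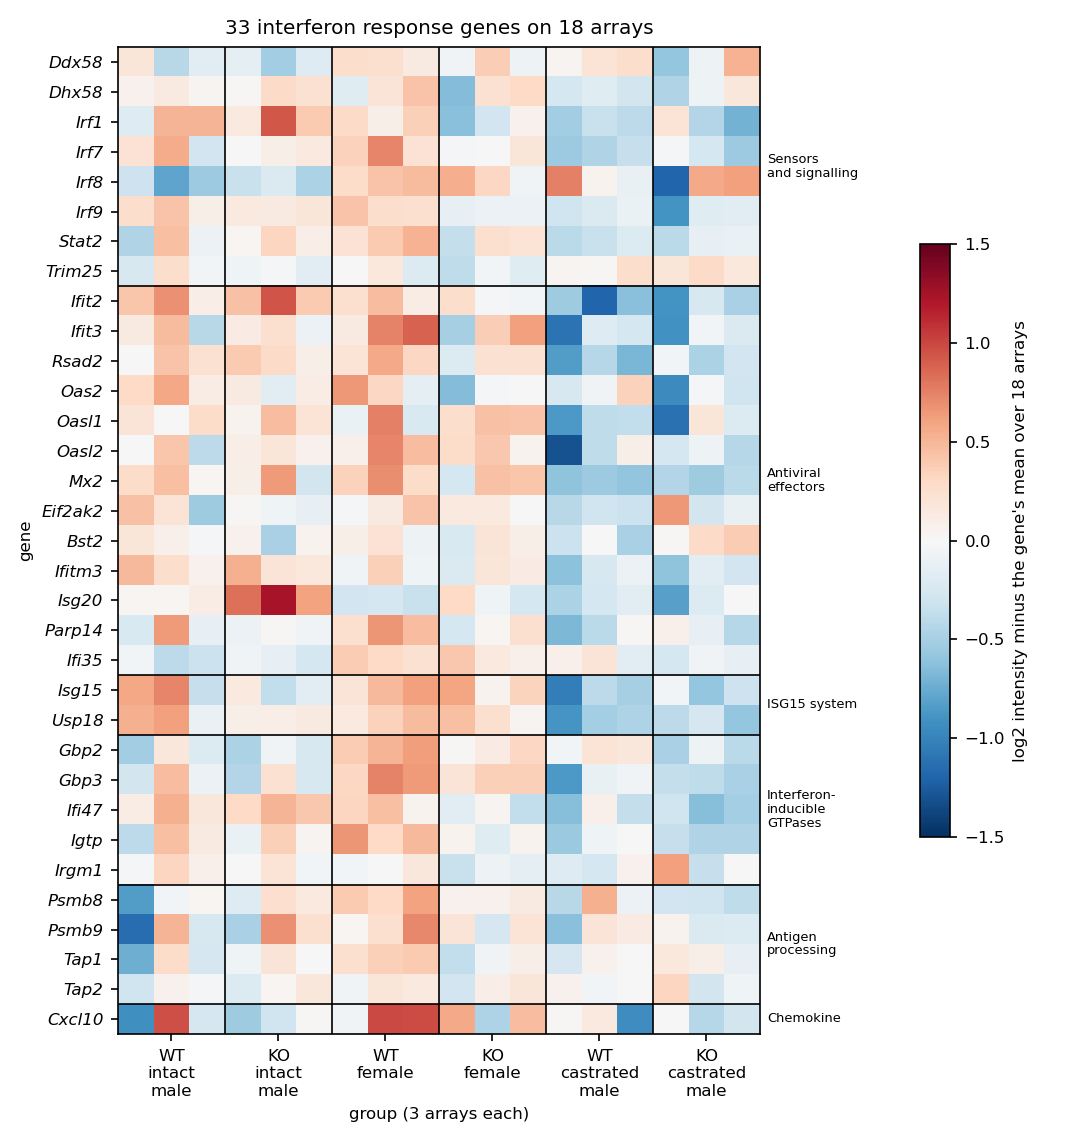
Heat map of the 33 tested interferon response genes (rows, by role) on 18 arrays (columns, 3 per group). Colour gives the log2 intensity minus the gene's mean over all arrays; the castrated male columns are mostly blue (lower) for the antiviral effectors and the ISG15 system and near white for antigen processing.

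Castrated males were compared with intact males to ask what loss of the testes does to the adrenal. Some antiviral effectors, the ISG15 pair, 3 interferon regulatory factors and 2 GTPases were lower after castration. Over both genotypes 13 of the 33 genes (39.4%) fell and none rose, where 15.8% of all genes tested fell and 11.9% rose. One of them, Isg20, met the filter only through knockout intact males, the group where it is high, so its fall is a description; without such genes 12 of 32 fell (15.8% of 10370 genes). Among genes above background on most castrated arrays the called falls ran from 1.31-fold for Igtp to 2.24-fold for Ifit2. The median difference of the 33 genes was -0.32 on the log2 scale, against -0.02 for all genes. Of the calls over all genes 57.1% were lower in castrated males, and 88.8% with arrays scaled to a common median. All castrated arrays lay below all intact ones for 8 of the 33 (7.52% of all genes), or 7 of 32 without Isg20 (7.50%). By role the fall covered 6 of 13 antiviral effectors, Isg20 by the filter among them, and both ISG15 genes. It covered 3 of 8 sensors and signalling proteins, 2 of 5 GTPases, none of 4 antigen processing genes and not the chemokine. Tests were contrasts of a limma fit to all 18 arrays, with Benjamini-Hochberg adjustment over 10375 genes and a threshold of 0.05.

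Ifit2 encodes a protein with tetratricopeptide repeats that binds viral RNA and limits translation. Its log2 intensity was 7.44, 7.70 and 7.12 in wild-type and 7.46, 7.96 and 7.41 in knockout intact males. It was 6.49, 5.83 and 6.39 in wild-type and 6.12, 6.78 and 6.53 in knockout castrated males. All 6 castrated arrays lay below all 6 intact ones, and the mean difference was -1.16 (SE 0.16, adjusted p = 4.22e-05), a 2.24-fold fall. In knockout castrated males 2 of 3 arrays had Ifit2 above background. It passed in each genotype, at -1.19 in wild type and -1.14 in the knockout. A dimmer Ifit2 probe gave -0.47 (SE 0.17, adjusted p = 0.0493 among all probes).

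Rsad2 encodes viperin, an enzyme that makes a chain-terminating nucleotide. It read 10.67, 11.09 and 10.89 in wild-type and 11.06, 10.95 and 10.76 in knockout intact males. Castrated males gave 9.83, 10.24 and 9.98 in wild-type and 10.63, 10.19 and 10.38 in knockout castrated males. No castrated array reached an intact one, with a fall of 0.69 (SE 0.11, adjusted p = 0.000186), and both genotypes passed alone. Mx2, a gene of the dynamin-like GTPase family, was at 6.71, 6.89 and 6.47 in wild-type and 6.53, 7.08 and 6.16 in knockout intact males. In castrated males it was 5.84, 5.89 and 5.85 in wild-type and 6.00, 5.91 and 6.04 in knockout castrated males. These 6 values span 5.84 to 6.04, all below the lowest intact value, and the fall was 0.72 (SE 0.17, adjusted p = 0.00397). Mx2 was above background on 3 of 3 wild-type and 2 of 3 knockout castrated arrays, so its castrated level is near background. Castration passed alone for Mx2 in wild type (-0.83, adjusted p = 0.0325) and not in the knockout (-0.60, adjusted p = 0.0914).

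Ifitm3, a membrane protein that stops enveloped viruses from fusing, measured 13.12, 12.90 and 12.70 in wild-type and 13.17, 12.83 and 12.80 in knockout intact males. After castration it measured 12.02, 12.40 and 12.55 in wild-type and 12.04, 12.47 and 12.35 in knockout castrated males. The groups did not overlap and the fall was 0.62 (SE 0.12, adjusted p = 0.000809), similar in size in wild type (-0.59) and knockout (-0.65). Oasl1 belongs to the oligoadenylate synthetase family and in mice restrains translation of Irf7. Its readings were 5.82, 5.62 and 5.90 in wild-type and 5.68, 6.09 and 5.83 in knockout intact males. They were 4.76, 5.24 and 5.26 in wild-type and 4.51, 5.80 and 5.42 in knockout castrated males. Among castrated arrays 1 of 6 had it above background, so the castrated level is mostly near background and no fold is given. The fitted difference was -0.66 (SE 0.21, adjusted p = 0.0283), with overlapping groups.

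Isg20, an exonuclease acting on RNA, was above background on the 3 knockout intact male arrays and on no other array. Its values were 5.11, 5.11 and 5.19 in wild-type and 5.90, 6.31 and 5.68 in knockout intact males. They were 4.60, 4.82 and 4.92 in wild-type and 4.26, 4.88 and 5.09 in knockout castrated males. Females read 4.79, 4.81 and 4.74 in wild-type and 5.38, 5.02 and 4.82 in knockout females. Only the knockout intact male arrays stood above background, and they are also what brought the gene past the filter. Its differences from that group are therefore fixed by the filter and are given without a test.

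The other 7 antiviral effectors did not pass between castrated and intact males. Their differences ran from -0.54 for Ifit3 to 0.15 for Ifi35, with Bst2, a tether that holds budding virions, at 0.00 (SE 0.12).

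Isg15 is a ubiquitin-like protein that is attached to other proteins, and Usp18 is the protease that removes it and also dampens the type I interferon receptor. Isg15 stood at 9.54, 9.70 and 8.62 in wild-type and 9.11, 8.60 and 8.80 in knockout intact males. In castrated males it stood at 7.93, 8.57 and 8.47 in wild-type and 8.92, 8.38 and 8.66 in knockout castrated males. The highest castrated value, 8.92, exceeded the lowest intact values, and the fall was 0.57 (SE 0.18, adjusted p = 0.0213). Usp18 read 9.74, 9.83 and 9.11 in wild-type and 9.30, 9.31 and 9.35 in knockout intact males. Its castrated values were 8.33, 8.70 and 8.75 in wild-type and 8.82, 8.96 and 8.63 in knockout castrated males. Those did not reach any intact value, and the fall was 0.74 (SE 0.13, adjusted p = 0.000289). A second, dimmer Usp18 probe gave -0.24 (adjusted p = 0.471 among all probes) and, in wild type, -0.06 (adjusted p = 0.947). In wild type alone both genes passed, at -0.96 for Isg15 and -0.97 for Usp18, the latter not with the mean of its probes (adjusted p = 0.144). In the knockout neither did, at -0.18 (adjusted p = 0.667) and -0.52 (adjusted p = 0.0545). The difference between the genotypes' castration effects did not pass for Isg15 (0.78, SE 0.35, adjusted p = 0.966) or for Usp18 (0.45, SE 0.25, adjusted p = 0.966).

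**Figure D2:**
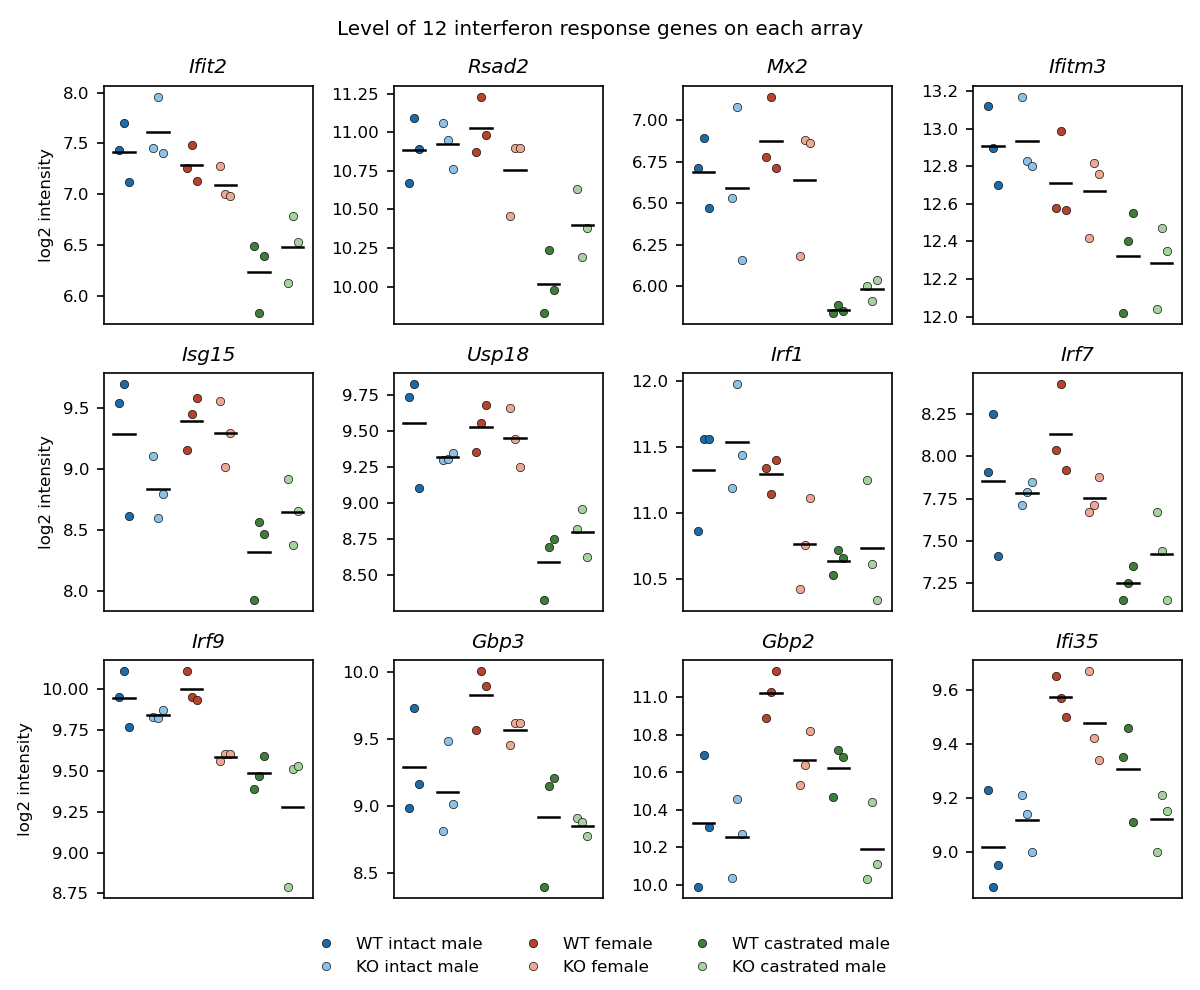
Log2 intensity of 12 interferon response genes on each of 18 arrays; points are arrays coloured by group (3 per group) and bars are group means, with a separate linear y axis for each gene. Mx2, Usp18, Rsad2 and Ifit2 lie lower on all castrated male arrays than on all intact male arrays, while Gbp2 and Ifi35 have their highest means in females.

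Irf1, a transcription factor induced early by interferon gamma, read 10.86, 11.56 and 11.56 in wild-type and 11.19, 11.98 and 11.44 in knockout intact males. Castrated males read 10.53, 10.72 and 10.66 in wild-type and 11.25, 10.61 and 10.34 in knockout castrated males. Knockout castrated array 1, at 11.25, overlapped the intact arrays, and the fall over both genotypes was 0.74 (SE 0.17, adjusted p = 0.00294). Of its 3 other probes, 2 also passed among all probes (-0.82 and -0.47) and the last, at -0.32, did not. On each of these 3 probes knockout castrated array 1 lay inside the range of the other castrated arrays, unlike on the brightest probe. Irf7, the factor that amplifies type I interferon production, was at 7.91, 8.25 and 7.41 in wild-type and 7.71, 7.79 and 7.85 in knockout intact males. It was at 7.15, 7.25 and 7.35 in wild-type and 7.67, 7.44 and 7.15 in knockout castrated males. Intact and castrated values overlapped within the pooled arrays, and the fall was 0.49 (SE 0.14, adjusted p = 0.0159). Irf9, a DNA-binding partner of STAT2, measured 9.95, 10.11 and 9.77 in wild-type and 9.83, 9.82 and 9.87 in knockout intact males. After castration it measured 9.39, 9.47 and 9.59 in wild-type and 8.79, 9.51 and 9.53 in knockout castrated males. All castrated values were below all intact ones, with a fall of 0.51 (SE 0.11, adjusted p = 0.00235). Knockout castrated array 1 gave the lowest Irf9 value, and without both arrays that stood apart Irf9 no longer passed in the knockout (adjusted p = 0.12). A second, dimmer Irf9 probe gave -0.18 and did not pass (adjusted p = 0.532 among all probes).

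Irf8, a factor of myeloid cells and B cells, ran against this direction without passing. It read 6.65, 6.17 and 6.41 in wild-type and 6.62, 6.74 and 6.48 in knockout intact males. Castrated males gave 7.71, 7.01 and 6.85 in wild-type and 5.77, 7.52 and 7.57 in knockout castrated males. Knockout castrated array 1 was not above background for it, and the difference was 0.56 (SE 0.25, adjusted p = 0.106). Without that array, alone or together with knockout female array 1, 2 of the 33 genes, Irf8 and Ddx58, passed as higher in castrated males over both genotypes, and 12 as lower. The RNA sensors Ddx58 (RIG-I) and Dhx58 (LGP2), Stat2 and the ubiquitin ligase Trim25 did not pass, at 0.27, -0.31, -0.32 and 0.20.

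Ifi47 and Igtp are immunity-related GTPases that act on vacuoles of intracellular pathogens. Ifi47 measured 6.75, 7.17 and 6.80 in wild-type and 6.93, 7.14 and 7.04 in knockout intact males. Castration gave 5.99, 6.71 and 6.28 in wild-type and 6.34, 5.99 and 6.12 in knockout castrated males. The arrays did not overlap, and the fall was 0.73 (SE 0.15, adjusted p = 0.00118). In knockout castrated males 2 of 3 arrays had Ifi47 above background. Igtp was at 9.68, 10.52 and 10.21 in wild-type and 9.97, 10.43 and 10.11 in knockout intact males. It was at 9.52, 10.01 and 10.06 in wild-type and 9.73, 9.62 and 9.62 in knockout castrated males. Its groups overlapped, and the fall was 0.39 (SE 0.13, adjusted p = 0.0348), a call lost under 10 of 30 alternatives. Gbp2, Gbp3 and Irgm1 did not pass, although a dimmer probe did for Gbp3 (-0.49, adjusted p = 0.014 among all probes) and for Irgm1 (-0.43, adjusted p = 0.0104), whose brighter probe was at -0.11.

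Antigen processing genes lie side by side on chromosome 17 and encode immunoproteasome subunits (Psmb8, Psmb9) and the peptide transporter (Tap1, Tap2). Over both genotypes their differences after castration lay between -0.05 and 0.08, with a median of 0.00. In wild type they ran from 0.10 to 0.30 and in the knockout from -0.39 to 0.00, and none passed in either genotype. Psmb8 read 9.67, 10.47 and 10.54 in wild-type and 10.32, 10.76 and 10.66 in knockout intact males. Castrated males read 10.10, 11.05 and 10.42 in wild-type and 10.23, 10.21 and 10.13 in knockout castrated males. For Psmb9 the values were 8.44, 10.09 and 9.34 in wild-type and 9.10, 10.27 and 9.82 in knockout intact males. They were 8.95, 9.77 and 9.70 in wild-type and 9.63, 9.36 and 9.37 in knockout castrated males. Intact and castrated arrays overlapped in wild type for both genes and in the knockout for Psmb9, while for Psmb8 the knockout castrated arrays lay below the intact ones (-0.39, adjusted p = 0.234). Cxcl10, a chemokine that draws activated T cells, was near background throughout. It read 4.67, 6.55 and 5.34 in wild-type and 5.05, 5.29 and 5.61 in knockout intact males. It read 5.61, 5.73 and 4.65 in wild-type and 5.59, 5.16 and 5.31 in knockout castrated males.

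Within a genotype, 6 of 33 genes fell after castration in wild type (6.10% of all genes fell) and 7 of 33 in the knockout (10.1% of all genes), 6 of 32 without Isg20. Ifit2, Rsad2 and Ifitm3 passed in both. Mx2, Isg15 and Usp18 passed in wild type, and Irf1, Irf9, Ifi47 and, by the filter, Isg20 in the knockout. The test of the difference between genotypes passed for none of the 33 genes and none of all genes. At an unadjusted p under 0.05 it took in 4 of the 33 and 417 of all genes (4.02%). The smallest p was that of Bst2 (0.00954, adjusted p = 0.966). Without wild-type intact male array 2, or without wild-type castrated array 1, 3 genes passed in wild type, and without knockout castrated array 1, 10 did. Leaving out knockout intact male array 2 left 4 in the knockout.

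**Figure D3:**
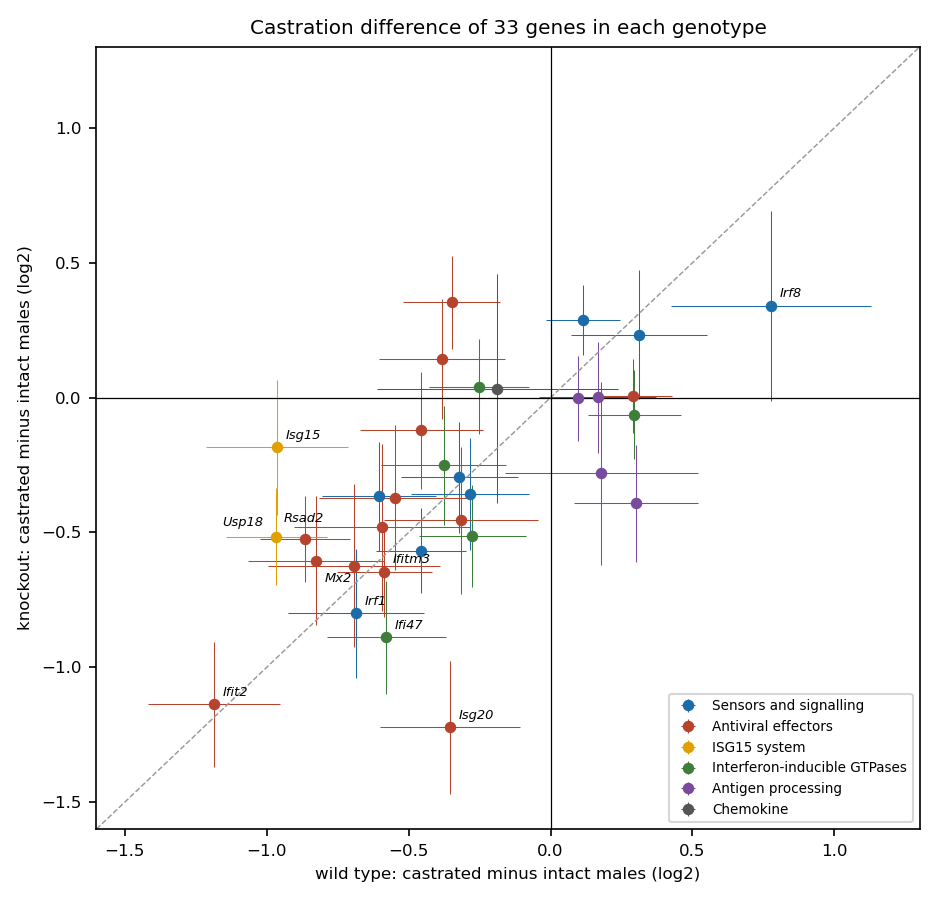
Castration difference (castrated minus intact males, log2) of the 33 genes in wild type (x axis) against the knockout (y axis); bars are standard errors, colours are roles and the dashed line marks equal differences. Ifit2 lies near the line at -1.19 and -1.14; Isg15 lies above it and Isg20, not above background in castrated males, below it.

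Other genes of the pathway, given as counts, did not all move with the list. Of 26 upstream genes (interferons, receptors, kinases, sensors and adaptors) 19 were tested, and none passed after castration. Among 43 other induced genes 37 were tested, of which 8 fell and 2 rose (15.8% and 11.9% of all genes). Those that fell were Ifitm1, Ifitm2, B2m, H2-D1, Samhd1, Dtx3l, Lgals3bp and Pml, from -0.66 for Ifitm1 to -0.34 for Ifitm2, and Zbp1 (0.53) and Psme2 (0.38) rose. Interferon beta and gamma and the receptor subunit Ifnar1 were not above background on 3 arrays.

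Markers of other cells moved with castration as well. In bulk tissue, fewer cells of a type and less RNA per cell cannot be told apart. Endothelial markers fell for 7 of 8 genes, and their mean log2 level was 9.43 to 9.77 on intact and 9.0 to 9.12 on castrated arrays. Macrophage markers fell for 6 of 13 genes and rose for Lyz2, with ranges of 8.21 to 8.61 and 7.89 to 8.34. All 5 genes of MHC class II presentation fell, from 10.27 to 11.07 on intact to 9.16 to 10.55 on castrated arrays. Chromaffin cell genes fell for 4 of 5 (13.12 to 13.85, then 12.45 to 13.16), and 5 of 6 cortex genes rose while Cyp11a1 fell (11.12 to 11.41, then 11.57 to 12). None of 5 lymphocyte markers passed, and of 3 plasmacytoid dendritic cell markers Ly6d fell. The part of these cells in the fall of the interferon response genes was not tested.

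Castrated males were next set against females. Some interferon response genes were lower in castrated males here as well, on the same castrated arrays. Over both genotypes 12 of 33 genes (36.4%) were lower and none higher, where 2.63% of all genes were lower and 1.76% higher. The median difference was -0.42, against -0.01 for all genes, and 31 of the 33 differences were below 0 (51.3% of all genes). Of the calls over all genes 59.9% were lower, and 88.6% with arrays scaled to a common median. All castrated arrays lay below all female ones for 6 of the 33 (1.69% of all genes). Lower genes made up 5 of 13 antiviral effectors, both ISG15 genes, 3 of 5 GTPases and 2 of 8 sensors and signalling proteins. This comparison shares its castrated arrays with the one above. A gene that passed in both is therefore not an independent repeat, and the values are only given side by side.

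In females Ifit2 measured 7.26, 7.48 and 7.13 in wild-type and 7.28, 7.0 and 6.98 in knockout females. Castrated males were lower by 0.83 (SE 0.16, adjusted p = 0.00658), without overlap. Rsad2 measured 10.87, 11.23 and 10.98 in wild-type and 10.46, 10.90 and 10.90 in knockout females and was lower in castrated males by 0.68 (SE 0.11, adjusted p = 0.0021), with knockout female array 1 inside the castrated range. Mx2 was at 6.78, 7.14 and 6.71 in wild-type and 6.18, 6.88 and 6.86 in knockout females, and the difference, without overlap, was -0.83 (SE 0.17, adjusted p = 0.00823). Of the effectors that fell against intact males, Isg20 left aside, these 3 also passed against females, while Ifitm3 and Oasl1 did not. Ifitm3 read 12.58, 12.99 and 12.57 in wild-type and 12.42, 12.82 and 12.76 in knockout females (-0.38, adjusted p = 0.075). Oasl1 read 5.52, 6.38 and 5.40 in wild-type and 5.89, 6.06 and 6.05 in knockout females (fitted difference -0.72, adjusted p = 0.0659), and its other probe passed among all probes (-0.79, adjusted p = 0.0172).

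Ifit3 and Oasl2 passed against females alone. Ifit3, a partner protein of the Ifit family, was at 11.14, 11.76 and 11.90 in wild-type and 10.51, 11.38 and 11.63 in knockout females. Intact males read 11.15, 11.49 and 10.60 in wild type and 11.13, 11.25 and 10.92 in the knockout. In castrated males it was 9.90, 10.82 and 10.75 in wild-type and 10.10, 10.97 and 10.79 in knockout castrated males. The castrated mean was lower than the female mean by 0.83 (SE 0.22, adjusted p = 0.0387), with overlap, and lower than the intact mean by 0.54 without passing (adjusted p = 0.0769). Oasl2, also of the oligoadenylate synthetase family, read 8.98, 9.63 and 9.36 in wild-type and 9.18, 9.31 and 8.95 in knockout females. Its other values were 8.90, 9.32 and 8.51 in wild-type and 9.0, 9.08 and 8.97 in knockout intact males. Castrated males had 7.59, 8.52 and 8.99 in wild-type and 8.64, 8.83 and 8.47 in knockout castrated males. Against females the fall was 0.73 (SE 0.19, adjusted p = 0.0377), and against intact males 0.46 (adjusted p = 0.082).

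Isg15 was 9.16, 9.45 and 9.58 in wild-type and 9.56, 9.02 and 9.30 in knockout females, and castrated males were lower by 0.86 (SE 0.18, adjusted p = 0.00954) without overlap. Usp18, at 9.36, 9.56 and 9.68 in wild-type and 9.66, 9.45 and 9.25 in knockout females, gave -0.80 (SE 0.13, adjusted p = 0.00144), also without overlap. Both genes of the ISG15 system therefore passed against intact males and against females, with the same castrated arrays in both comparisons. Irf7 read 8.04, 8.43 and 7.92 in wild-type and 7.67, 7.71 and 7.88 in knockout females and Irf9 read 10.11, 9.95 and 9.93 in wild-type and 9.56, 9.60 and 9.60 in knockout females. Castrated males were lower by 0.61 (SE 0.14, adjusted p = 0.021) for Irf7 and by 0.41 (SE 0.11, adjusted p = 0.0432) for Irf9. The Irf9 call was lost under 20 of 30 alternatives (adjusted p up to 0.184). Irf1, at 11.34, 11.14 and 11.40 in wild-type and 10.42, 10.76 and 11.11 in knockout females, did not pass (-0.34, adjusted p = 0.274), although 1 of its other 3 probes did among all probes (-0.55, adjusted p = 0.0374).

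Guanylate-binding proteins Gbp2 and Gbp3, which coat pathogen vacuoles, had their highest means in females. Gbp3 measured 9.57, 10.01 and 9.90 in wild-type and 9.46, 9.62 and 9.62 in knockout females. Intact males had 8.99, 9.73 and 9.17 and 8.82, 9.49 and 9.02, in wild type and knockout. In castrated males it was 8.40, 9.15 and 9.21 in wild-type and 8.91, 8.88 and 8.78 in knockout castrated males. All castrated arrays lay below all female ones, by 0.81 (SE 0.16, adjusted p = 0.00639). Gbp2 measured 10.89, 11.03 and 11.14 in wild-type and 10.53, 10.64 and 10.82 in knockout females. Its intact values were 9.99, 10.69 and 10.31 in wild-type and 10.04, 10.46 and 10.27 in knockout intact males. Castrated males gave 10.47, 10.72 and 10.68 in wild-type and 10.03, 10.44 and 10.11 in knockout castrated males. The difference from females was -0.43 (SE 0.12, adjusted p = 0.0407), and a dimmer probe, above background on 3 arrays, gave 0.10 and did not pass. Igtp, at 10.73, 10.37 and 10.56 in wild-type and 10.13, 9.89 and 10.13 in knockout females, was lower in castrated males by 0.54 (SE 0.13, adjusted p = 0.0283). The calls of Gbp2, Ifit3 and Oasl2 were lost under 17, 13 and 13 of 30 alternatives. Among all probes, dimmer probes also passed for Gbp3 (-0.89), Oasl2 (-0.65) and Irgm1 (-0.46), and those of Ifit2 (-0.43), Ifit3 (-0.69), Irf9 (-0.46) and Usp18 (-0.69) did not.

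The genes of antigen processing did not pass against females, at -0.42 to -0.04, nor did Cxcl10, which was above background on 2 of 6 castrated arrays. Of the other induced genes 5 of 37 were lower, namely Gbp7, B2m, Cmpk2, Lgals3bp and Pml, with Lgals3bp at -0.86 (SE 0.12, adjusted p = 0.000617). None of 19 upstream genes passed. Markers of other cells differed as follows. Endothelium was lower for 3 of 8 genes (9.30 to 9.50 in females, 9.0 to 9.12 in castrated males) and chromaffin cells for 4 of 5 (13.23 to 14.10 and 12.45 to 13.16), while none of the macrophage, MHC class II or lymphocyte markers passed. Their part in the result was not tested. The count of 12 rested on several arrays. It was 6 without wild-type castrated array 1 and 7 without wild-type female array 2, wild-type female array 3 or knockout castrated array 3, and it was 13 without both arrays that stood apart.

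**Figure D4:**
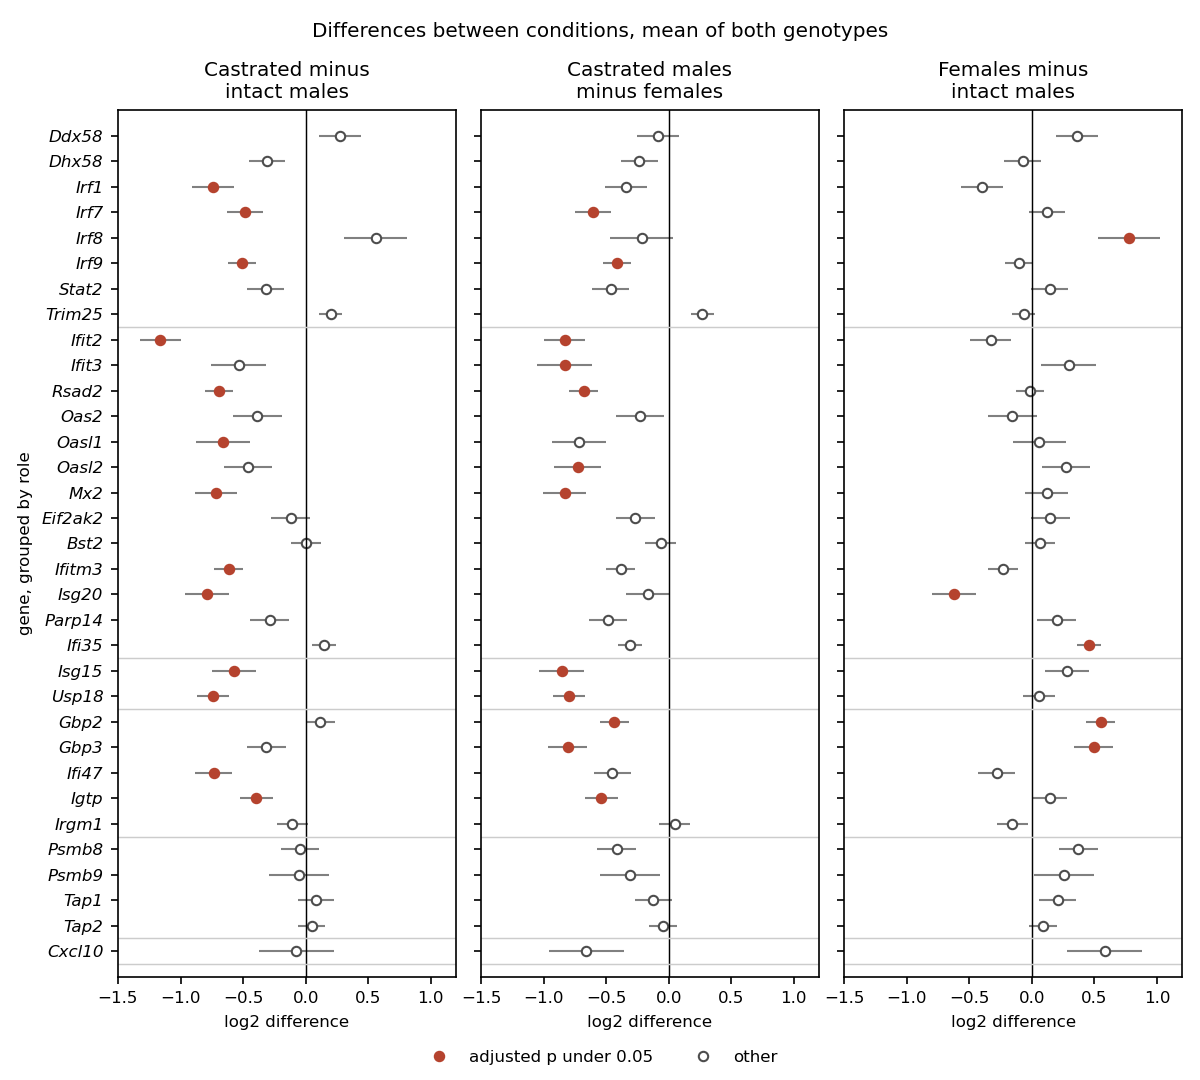
Log2 difference of each of the 33 genes, mean of both genotypes, for castrated minus intact males, castrated males minus females, and females minus intact males; bars are standard errors of the limma fit, filled points have an adjusted p under 0.05. Filled points lie left of 0 in both castrated panels; in the female panel 4 lie right of 0 and Isg20, not above background in females, left.

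Females were compared with intact males for the sex difference. Over both genotypes 4 of 33 genes were higher in females and 1 was lower, against 10.7% and 11.1% of all genes, so the count of 5 (15.2%) is below the 21.8% of all genes. The gene that was lower is Isg20, and without it 4 of 32 were higher and 0 lower. The median difference was 0.12, against -0.03 for all genes. Irf8, at 7.23, 7.39 and 7.43 in wild-type and 7.50, 7.27 and 6.90 in knockout females in comparison with the intact values given above, was higher by 0.78 (SE 0.25, adjusted p = 0.0327), and all female arrays exceeded all intact male arrays. Ifi35, which helps stabilise interferon-induced signalling complexes, read 9.23, 8.87 and 8.95 in wild-type and 9.21, 9.14 and 9.0 in knockout intact males. Females read 9.65, 9.57 and 9.50 in wild-type and 9.67, 9.42 and 9.34 in knockout females. Those were all above the males, by 0.46 (SE 0.10, adjusted p = 0.00206). Castrated males, at 9.35, 9.46 and 9.11 in wild-type and 9.0, 9.21 and 9.15 in knockout castrated males, overlapped both. Gbp2 was higher by 0.55 (SE 0.12, adjusted p = 0.0019) and Gbp3 by 0.49 (SE 0.16, adjusted p = 0.0302), each with some overlap. The Irf8 and Gbp3 calls were lost under 11 and 9 of 30 alternatives.

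In wild type alone Ifi35 (0.55), Gbp2 (0.69) and Psmb8 (0.72) were higher in females, 3 of 33 against 5.31% of all genes. Psmb8 females read 10.91, 10.81 and 11.12 in wild-type and 10.58, 10.58 and 10.65 in knockout females, and its second probe gave 0.56 in wild type and did not pass (adjusted p = 0.359 among all probes). Its call was lost under 12 of 30 alternatives. In the knockout Irf1 (-0.77, adjusted p = 0.0463) and, by the filter, Isg20 were lower in females, 2 of 33 against 4.77%, or 1 of 32 without Isg20. The Irf1 call was lost under 19 of 30 alternatives (adjusted p up to 0.244). Cxcl10 in females read 5.53, 6.58 and 6.57 in wild-type and 6.16, 5.12 and 6.05 in knockout females, with no difference past the threshold in either genotype and 2 of 6 intact male arrays above background. Beside these values, all 5 genes of MHC class II presentation were lower in females than in intact males (8.92 to 10.19 against 10.27 to 11.07). Of the 6 cortex genes 4 were higher and Cyp11a1 lower, Lyz2 was higher among 13 macrophage genes, and Esam among 8 endothelial genes and Ly6d (-1.62) among 3 plasmacytoid dendritic cell genes were lower. None of 5 lymphocyte or 5 chromaffin cell genes passed. The part of these cells was not tested. Of the other induced genes 4 of 37 were higher (Psme1, Psme2, Cmpk2 and Lgals3bp) and 2 lower (Ifitm1 and Ifitm2), and of 19 upstream genes Socs3 was higher and Irf3 lower. These counts moved with single arrays. The wild-type count was 1 without wild-type intact male array 1, wild-type female array 1 or wild-type female array 3. In the knockout it was 0 without knockout intact male array 2 or knockout female array 2, and it stayed at 2 only without wild-type intact male array 1 or 2 or knockout castrated array 1 or 3. The count over both genotypes was 3 without wild-type intact male array 3, knockout intact male array 1 or 3, wild-type female array 2 or 3, or knockout female array 2. With arrays scaled to a common median it was 0 higher and 1 lower.

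Loss of Ephb6 was the question of the study, and no interferon response gene passed for it in intact males, females or castrated males by limma. The shares of all genes that passed were 0% in each condition, so the test called nothing to set the members against. At an unadjusted p under 0.05 there were 1 of 33 genes in intact males (Isg20, through the filter; 2.65% of all genes), 6 in females (2.80%) and 3 in castrated males (6.27%). Over the 3 conditions together none of the 33 passed (1 gene, 0.00964% of all genes, did: Ephb6), and the differences between conditions in the knockout effect passed for none.

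In intact males the median knockout difference of the 33 genes was 0.03, against 0.01 for all genes. Isg20 was highest in the knockout, at 5.90, 6.31 and 5.68 against 5.11, 5.11 and 5.19. Since those 3 arrays brought the gene past the filter, this is a description. Isg15 gave -0.45 (95% interval -0.97 to 0.08), Psmb9 0.44 (-0.27 to 1.15) and Psmb8 0.36 (-0.10 to 0.82), each with overlapping groups. Without wild-type intact male array 1 Psmb9 was at 0.01 and Psmb8 at 0.08.

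In females the 33 genes lay lower in the knockout without passing. The difference was below 0 for 31 of them (48.7% of all genes), Oasl1 and Isg20 being the exceptions, and the median was -0.23 against 0.00 for all genes. Knockout and wild-type arrays did not overlap for 9 genes in that direction (3.65% of all genes): Irf1, Irf7, Irf9, Gbp2, Ifi47, Igtp, Irgm1, Psmb8 and Tap1. Igtp was at 10.13, 9.89 and 10.13 in the knockout and 10.73, 10.37 and 10.56 in wild type (-0.51, 95% interval -0.90 to -0.11, adjusted p = 1). Irf9 was at 9.56, 9.60 and 9.60 and 10.11, 9.95 and 9.93 (-0.41, interval -0.75 to -0.08, adjusted p = 1). For Irf1 the values were 10.42, 10.76 and 11.11 and 11.34, 11.14 and 11.40, and the difference was -0.53 (interval -1.03 to -0.03). Oas2, which makes the messenger that activates RNase L, read 7.0, 6.65 and 6.20 in wild-type and 5.69, 6.33 and 6.34 in knockout females. Its difference of -0.50 came with overlapping arrays. Genes of a pathway are not independent, so these counts are a description. Knockout female array 1 was the lowest of its 3 arrays for 19 of the 33 genes (41.3% of all genes). Leaving it out moved the median to -0.19, and leaving out wild-type female array 2 moved it to -0.17. MHC class II genes had negative knockout differences in females too (median -0.78, none passing), at 8.92 to 9.50 against 9.76 to 10.19, and their part was not tested.

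In castrated males the median knockout difference was 0.10, against 0.01 for all genes. Bst2 read 9.67, 9.56 and 9.47 in wild-type and 9.55, 9.0 and 9.54 in knockout intact males. Castrated males gave 9.17, 9.49 and 9.0 in wild-type and 9.50, 9.77 and 9.87 in knockout castrated males. Females gave 9.57, 9.70 and 9.41 in wild-type and 9.26, 9.68 and 9.57 in knockout females. The knockout castrated arrays were above the wild-type ones, by 0.50 (95% interval 0.14 to 0.86, adjusted p = 0.751). Gbp2 was lower without overlap (-0.43, interval -0.78 to -0.09, adjusted p = 0.751). Rsad2 differed by 0.39 (interval 0.05 to 0.72) with overlap. Oas2 was 6.64, 6.92 and 6.46 in wild-type and 6.48, 6.19 and 6.45 in knockout intact males, and 6.10, 6.29 and 6.69 in wild-type and 5.39, 6.33 and 6.04 in knockout castrated males, a difference of -0.44 with overlap. Knockout castrated array 1, the one with the low bead signal, gave its group's highest Rsad2 value (10.63). It also gave the lowest values of Oas2 (5.39), Gbp2 (10.03) and Bst2 (9.50), for Bst2 against the direction of the difference. With arrays scaled to a common median, the differences were 0.17 for Bst2, 0.10 for Rsad2 and -0.75 for Gbp2. All genes then had a median of -0.265. The knockout effect in females minus that in intact males had a median of -0.28 over the 33 genes (all genes 0.00). In castrated males minus females the median was 0.30 (all genes 0.01). The median standard error of such a difference was 0.31 for one gene.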

How the data were processed

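Per the file headers, the deposited bead table gives 45281 probes on 18 arrays, each with a mean intensity not yet normalized and a detection p-value. The submitters' processing notes name GenomeStudio. Values the authors normalized (also intensity, deposited apart, method not given in the sources used here) served as an alternative. Signals were background-corrected and quantile-normalized with neqc (limma 3.58.1, R 4.3.3; control intensities worked out from detection p-values, offset 16) and put on the log2 scale. Of 18158 probes kept, 15717 had 1 gene symbol, and the brightest probe stood for each of 10375 genes. A limma fit of all 18 arrays (12 residual degrees of freedom, intensity trend) gave 14 contrasts. The number of arrays limits the precision (median standard error 0.21 for a difference of 2 groups). No batch could be fitted, since the sources used here give neither slide nor scan. Same-numbered samples of different groups showed no strong joint deviation (45 pairs, r from -0.23 to 0.23), and the main fit paired no samples by number. With 3 arrays in a group this cannot show that the numbers carry no pairing. Array values are given for each gene that passed in any contrast and for the 3 largest differences and 3 smallest p-values of the contrasts within a condition or genotype. The members, the lists and this rule were chosen with earlier results of these data known. Alternatives were other background corrections, scalings, filters, probe choices, array weights, fits and arrays left out. The fit was tested on simulated data. Probe sequences were not used here, so cross-hybridisation between related genes (Ifit, Oas, Gbp, Ifitm) could not be assessed.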

Additional observations from a re-analysis of the deposited data

How the results depend on the processing

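Each result was recomputed under 30 alternatives, 18 of which left out 1 array. Counts of interferon response genes past the threshold stayed at 0 for every knockout contrast and every difference of knockout effects, under all 30. For castrated against intact males over both genotypes the count of 13 stayed between 12 and 17 (10 to 15 with 1 array left out). Genes passed as higher there with array weights (4, with 13 lower), without both arrays that stood apart or without knockout castrated array 1 (2, with 12 lower) and without wild-type intact male array 2 (1, with 11 lower). For castrated males against females the count of 12 became 21 with array weights and 6 to 14 with 1 array left out. In wild type, castration gave 6 genes, 1 with median scaling, 12 with array weights (10 lower, 2 higher), 10 without both arrays that stood apart and 3 to 10 with 1 array left out. In the knockout it gave 7 genes, 13 with array weights (10 lower, 3 higher), 4 with only the groups compared and 4 to 9 with 1 array left out. For females against intact males, wild type gave 3 genes, 0 with median scaling, 10 with array weights, 1 with the mean of a gene's probes and 1 to 4 with 1 array left out. The knockout gave 2, and 1 without background correction, with median scaling, without a filter, without an intensity trend, with the mean of a gene's probes or without both arrays, 4 with array weights, 0 with only the groups compared and 0 to 2 with 1 array left out. Over both genotypes the count of 5 became 1 with median scaling, 10 with array weights and 3 to 5 with 1 array left out. With the replicate number as a block, counts of calls were 14 for castrated against intact males, 13 for castrated males against females, 5 for females against intact males and 0 for the knockout contrasts, a hint from the data and not the design. The 48 values of genes past the threshold, those of Isg20 among them, kept their direction under all alternatives. In 204 of 1440 recomputed values they no longer passed. Where every probe was tested apart, the probe with the smallest p stood for its gene. A second probe of the other sign, such as that of Gbp2 in castrated males against females, was therefore not counted as a change of direction. Array weights and median scaling also changed the calls over all genes, from 2873 to 4308 and 2092 for castrated against intact males and from 456 to 1399 and 308 for castrated males against females, and from 2265 to 3679 and 775 for females against intact males. Under median scaling all genes together had a median of -0.29 in castrated against intact males and -0.23 in castrated males against females. The 33 genes then had medians of -0.64 and -0.68, and the 48 values kept their sign relative to the shift. The cause of these changes was not tested. Genes near background, such as Isg20, Oasl1 and Cxcl10, have the least certain values.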

Other observations

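Some genes on the list lie close together on a chromosome. The antigen processing genes Psmb9, Tap1, Psmb8 and Tap2 lie within chr17:34182030-34216321 (GRCm38.p6), and none passed after castration. Ifit2 and Ifit3 are neighbours on chromosome 19, at chr19:34550550-34576534 and chr19:34583119-34588982. Castrated against intact males, Ifit2 was at -1.16 and passed, and Ifit3 was at -0.54 (adjusted p = 0.0769) and did not. Against females the pair gave -0.83 and -0.83, both past the threshold. Whether the pair differ from each other was not tested.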
